A study of Mus musculus with 30 samples.

Results

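Copying the genome before each division takes a set of proteins that act in a fixed order, and 41 genes that encode them, or that supply the deoxynucleotides they use, were followed here in murine erythroleukemia (MEL) cells. They were taken by gene symbol from the 54532 genes of the deposited count table, and each symbol matched 1 gene. MEL cells are a mouse line transformed at an early red cell stage that begins to make hemoglobin when dimethyl sulfoxide (DMSO) is added to the medium. RNA was sequenced from WT cells of the DS19 clone and from Abcb10-null cells, untreated (Day 0) or kept in DMSO at 1.5% for 2 days or for 5 days, with 5 libraries of each genotype and day and 30 in all. The Abcb10-null cells were 1 CRISPR/Cas9 clone made by lentiviral transduction, sorting for green fluorescent protein and single-cell cloning, so that a difference between genotypes cannot be told apart from a difference of that clone, and the samples are labelled WT only, while other experiments of the study used control cells that carried an mCherry construct. The labels call the libraries of a group biological replicates without saying whether these were separate cultures, and the p-values therefore measure the spread between these libraries.

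In a dividing cell, the origin recognition complex (Orc1 and Orc6 among its subunits), Cdc6 and Cdt1 load the Mcm2-7 helicase onto DNA in G1, and Mcm10, Cdc45 and the GINS complex then switch the helicase on. Primase and polymerase α start each strand, the Rfc complex loads the Pcna clamp that holds polymerases δ and ε on DNA, Rpa covers single strands, Fen1 and Lig1 join the lagging-strand fragments, and Chaf1a and Chaf1b place histones behind the fork. Ribonucleotide reductase (Rrm1, Rrm2), Tyms, Tk1 and Dut set the supply of deoxynucleotides, Ung removes uracil from DNA, and many of these genes are known targets of E2F factors, whose activity falls as red cell precursors leave the cell cycle.

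The libraries held 9906783 to 20157768 assigned counts, with a median of 16492117, and every member passed the filter on low counts in all 12 comparisons. Abcb10 itself, read first as a check of the labels, was at 112 to 126 CPM (read counts relative to library totals scaled by TMM, the trimmed mean of M-values) in the WT libraries and at 67.2 to 79.4 CPM in the Abcb10-null libraries at Day 0, and at 1152 to 1264 and 177 to 237 CPM at Day 5, so that each group lay where its label puts it although the mRNA was not lost. All 10 genes of an erythroid marker list were detected, with a summed level at Day 5 of 11179 to 24238 CPM for WT and 5177 to 6757 CPM for Abcb10-null libraries, and the lists for myeloid cells, macrophages, T cells, B cells, mast cells and fibroblasts stayed at or under 12.7 CPM summed in any library. The erythroid list includes the globin genes Hba-a1 and Hbb-bs. Globin RNA had been depleted before sequencing, so the erythroid sum depends on that depletion. The megakaryocyte list summed to 154 to 603 CPM over all groups. In these bulk samples, fewer cells in S phase and less RNA of a gene per cell cannot be told apart.

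Some libraries stood apart from others of their group. At Day 2, WT replicates 1 and 2 had 14.4 and 14.1 CPM of Slc4a1, the red cell anion exchanger, against 0.934 to 2.27 CPM in the other WT libraries. Abcb10-null replicates 2 and 5 had 0.446 and 0.466 CPM of it against 4.44 to 6.33 CPM in the other 3. At Day 5, Abcb10-null replicates 1 and 4 were lowest for 19 and 18 of the 41 members, and WT replicate 2 was lowest for 31. WT replicate 5 had the lowest level of Alas2, the first enzyme of erythroid heme synthesis, of the WT libraries (4062 CPM against 5427 to 7218 CPM). For most comparisons the counts are also given without the pairs named at Day 2 and without Abcb10-null Day 5 replicates 1 and 4. They are not so given for the changes from Day 2 to Day 5 within a genotype. WT Day 5 replicates 2 and 5 were left out only 1 at a time. For every fit that left out 1 library, the share of all genes called is not given. The counts of members from those fits therefore cannot be set against all genes.

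Before DMSO, the members covered a wide range of levels in WT cells. Per kilobase of exon, the helicase subunits Mcm6 (217 ± 7.34 CPM per kilobase, SD, n = 5) and Mcm5 (189.7 ± 6.85) and the clamp Pcna (175 ± 10.4) were highest, followed by Mcm3 (125 ± 6.07), Fen1 (124 ± 7.10) and Dut (123 ± 8.20), whose spreads overlapped. The 6 Mcm2-7 subunits, which enter the helicase in equal numbers, ran from 60.1 ± 3.83 CPM per kilobase for Mcm4 to the level of Mcm6, and Mcm2 (62.7 ± 5.46) and Mcm4 did not differ beyond their spread. Among the GINS subunits, Gins4 (101 ± 6.39) stood above Gins1 (34.7 ± 2.09), and Gins2 (20.9 ± 2.22) and Gins3 (19 ± 0.867) overlapped. The licensing factor Cdt1 was the lowest member at 2.56 ± 0.272 CPM per kilobase, below Ung (6.35 ± 0.255) and the polymerase ε subunit Pole (7.18 ± 0.249). A length over all annotated exons can understate a gene with long, little used exons, so this order is a description.

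**Figure D1:**
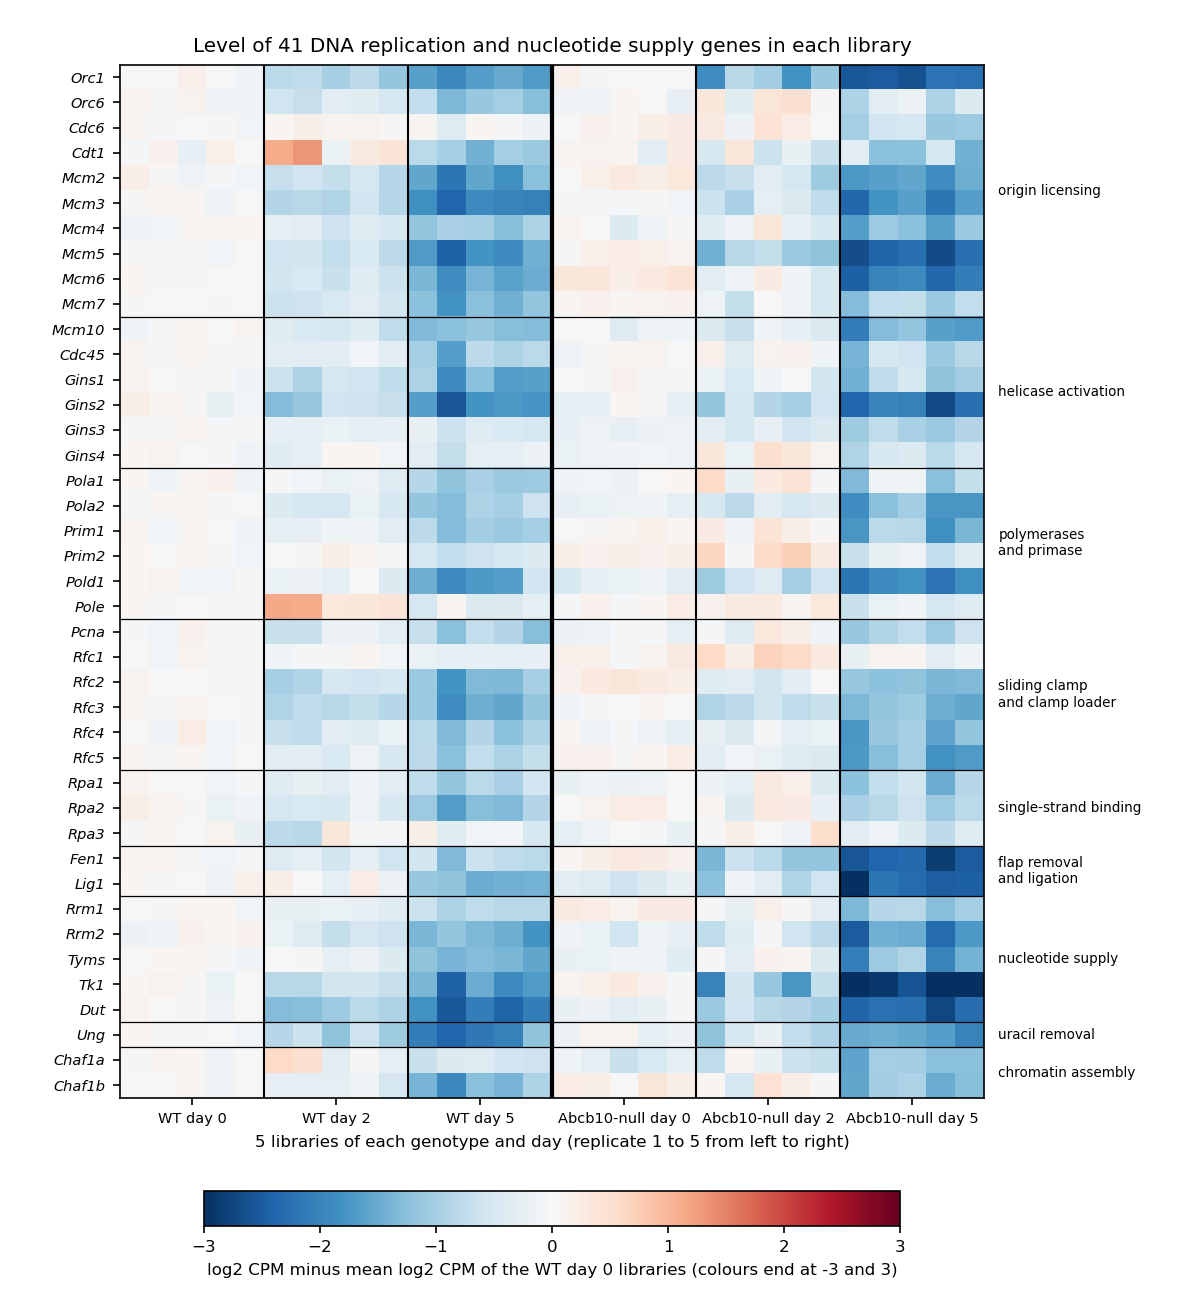
Level of each of the 41 members (rows, grouped by role) in each of the 30 libraries (columns), as log2 CPM minus the mean log2 CPM of the 5 WT Day 0 libraries, with blue for lower and red for higher. Nearly all rows turn blue by Day 5 in both genotypes, while Cdt1 and Pole are reddest in WT Day 2 replicates 1 and 2.

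During differentiation of WT cells the replication genes fell together. Between Day 0 and Day 5, 39 of the 41 members fell at an adjusted p under 0.05 (edgeR's quasi-likelihood test, adjusted by Benjamini-Hochberg across every gene tested) and none rose, against 34.7% of the 12723 genes tested that fell and 36.5% that rose. The median log2 fold change of the members was -1.09, that of all genes tested 0.02. In 38 members all 5 Day 5 libraries lay below all 5 Day 0 libraries, a pattern shown by 28.6% of genes tested (27.8% the other way). As a share of all assigned counts, the 41 genes went from 0.846% to 0.879% at Day 0 to 0.343% to 0.449% at Day 5.

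The largest fall was that of Dut, the dUTPase that keeps uracil out of DNA. Its WT libraries had 319.7, 292, 303, 265 and 297 CPM at Day 0 and 84.0, 50.4, 69.5, 55.4 and 69.5 CPM at Day 5. Every Day 5 library was below every Day 0 library, at 22.2% of the Day 0 level, with a log2 fold change of -2.17 ± 0.13 (SE, adjusted p = 9.64e-09). Mcm3, a subunit of the helicase, went from 478, 483, 485, 429.7 and 465 CPM to 131, 90.1, 124, 116 and 114 CPM. These groups also lay apart. Their log2 fold change was -2.03 ± 0.10 (SE, adjusted p = 2.74e-09). Ung, the uracil-DNA glycosylase, was a low gene at 36.4, 35.8, 33.9, 34.5 and 32.9 CPM before DMSO and 8.24, 6.62, 7.88, 8.46 and 15.1 CPM at Day 5. Replicate 5 was the highest Day 5 library and still under all Day 0 libraries. The log2 fold change of Ung was -1.90 ± 0.19 (SE, adjusted p = 9.73e-07).

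By role, the falls differed in size within each complex. All 5 nucleotide supply genes fell, with log2 fold changes from -2.17 for Dut to -0.81 for Rrm1, the large subunit of ribonucleotide reductase, and with the thymidine kinase Tk1 (-1.74), the small reductase subunit Rrm2 (-1.42) and the thymidylate synthase Tyms (-1.36) between. Of the 10 licensing genes 9 fell, and the exception was Cdc6, the loader of the helicase, which had 219, 201, 203, 209 and 196 CPM at Day 0 and 219, 157, 214, 199 and 183 CPM at Day 5. These ranges overlapped, and the log2 fold change of Cdc6 was -0.08 ± 0.10 (SE, adjusted p = 0.458). In the GINS complex, Gins2 (-1.88) and Gins1 (-1.44) fell by more than Gins3 (-0.44) and Gins4 (-0.35), although the difference between subunits was not tested. The exons of Gins2 share 67.3% of their bases with Gse1 on the opposite strand. The effect of this overlap on the Gins2 counts was not tested. In the clamp loader, Rfc2 to Rfc5 had log2 fold changes of -1.41 to -0.87, and the large subunit Rfc1 had one of -0.25. Rpa3, the smallest subunit of the single-strand binding complex, was the other member that did not pass the test, with 65.1, 66.6, 63.5, 68.3 and 54.1 CPM at Day 0, 71.0, 49.6, 59.6, 60.2 and 45.7 CPM at Day 5 and a log2 fold change of -0.15 ± 0.12 (SE, adjusted p = 0.28).

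Part of the fall was present by Day 2. Between Day 0 and Day 2 in WT cells, 29 members fell and 2 rose, against 30.7% and 31.5% of the 12839 genes tested, and the median log2 fold change was -0.41 (all genes 0.01). In 28 members the Day 2 libraries all lay below the Day 0 libraries, as in 24.7% of genes tested, and in Pole all lay above, as in 21.8%. Dut again led the falls, with 119, 122, 139, 169 and 154 CPM at Day 2, all below Day 0, and a log2 fold change of -1.07 ± 0.11 (SE, adjusted p = 2.44e-06). Orc1, the largest subunit of the origin recognition complex, went from 80.4, 79.3, 89.3, 79.7 and 73.3 to 45.6, 47.3, 40.0, 46.4 and 36.1 CPM, with no overlap and a log2 fold change of -0.90 ± 0.09 (SE, adjusted p = 2.76e-06). For Ung, the Day 2 level was 19.2, 22.3, 14.9, 22.7 and 16.6 CPM, again with no overlap, and the log2 fold change was -0.86 ± 0.12 (SE, adjusted p = 4.38e-05).

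Pole and Cdt1 were the 2 members that rose by Day 2, and both were highest in WT replicates 1 and 2. Pole, the catalytic subunit of polymerase ε, had 83.7, 77.8, 79.6, 82.4 and 77.4 CPM at Day 0 and 176, 173, 99.4, 101 and 104 CPM at Day 2. Replicates 1 and 2 stood well above the other 3, which were themselves all above Day 0. Pole had a log2 fold change of 0.70 ± 0.16 (SE, adjusted p = 0.00191). Cdt1 had 7.71, 8.76, 6.77, 8.86 and 8.09 CPM at Day 0 and 17.4, 20.1, 7.01, 9.58 and 10.5 CPM at Day 2. Its ranges overlapped, its log2 fold change was 0.68 ± 0.25 (SE, adjusted p = 0.0287), and without replicates 1 and 2 it was 0.21 (adjusted p = 0.295). The call for Cdt1 was also lost, with log2 fold changes of 0.51 to 0.67, without any 1 of WT Day 0 replicates 1, 3 or 5 or WT Day 2 replicates 1 or 2, and each left Pole as the 1 member called higher. Chaf1a, the large subunit of the chromatin assembly factor, showed a like split at Day 2 with 127, 117, 66.1, 86.1 and 68.0 CPM, and Rpa3 the opposite one with 36.8, 35.7, 80.3, 62.3 and 60.8 CPM, and neither passed the test. Without replicates 1 and 2, 30 members fell and 1 rose, against 27.9% and 30% of genes tested.

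Between Day 2 and Day 5 the WT fall went on in 35 members, with none higher, against 16.4% of the 13025 genes tested that fell and 17% that rose. The median log2 fold change was -0.77 (all genes -0.03), and in 35 members the groups did not overlap, as in 10.8% of genes tested (12.8% the other way). Cdt1 fell most, from 17.4, 20.1, 7.01, 9.58 and 10.5 CPM at Day 2 to 4.59, 4.03, 2.97, 3.98 and 3.67 CPM at Day 5. Its log2 fold change was -1.73 ± 0.28 (SE, adjusted p = 5.78e-04). WT Day 2 replicates 1 and 2 were the highest, and the fall is not given without them both. Lig1, the ligase that seals the lagging strand, had been at 97.5, 91.6, 93.0, 84.9 and 106 CPM at Day 0 and 108, 92.9, 77.0, 109.8 and 83.6 CPM at Day 2, ranges that overlapped (log2 fold change -0.01, adjusted p = 0.966). It then dropped to 42.7, 41, 33.5, 34.5 and 35.5 CPM at Day 5, below every earlier library, with a log2 fold change of -1.33 ± 0.13 (SE, adjusted p = 2.24e-05) from Day 2. Mcm3 continued its fall, from 253, 263, 250.5, 313 and 258 CPM at Day 2, with a log2 fold change of -1.22 ± 0.13 (SE, adjusted p = 3.51e-05). The 6 members without a call were Cdc6, Rpa3, Rfc1, Gins3, Gins4 and Fen1, and that of Fen1 was -0.38 (adjusted p = 0.0667).

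In Abcb10-null cells the replication genes also fell from Day 0 to Day 5. All members but Rfc1 passed the test, so 40 of 41 fell, against 33.3% of the 12915 genes tested that fell and 33.9% that rose. The median log2 fold change of the members was -1.26 (all genes 0.01). In 37 members the groups lay fully apart, as in 27.6% of genes tested (26.6% the other way). Tk1, which salvages thymidine, fell most. It had 114, 121, 133, 119 and 104 CPM at Day 0 and 9.47, 14.8, 18.1, 7.37 and 10.4 CPM at Day 5. Every Day 5 library was far under Day 0, at 10.4% of it, with a log2 fold change of -3.27 ± 0.19 (SE, adjusted p = 4.11e-10). Fen1, the nuclease that trims the flaps of lagging-strand fragments, went from 312, 337, 367, 356 and 328 CPM to 50.4, 57.3, 60.0, 41.7 and 52.8 CPM, with a log2 fold change of -2.69 ± 0.10 (SE, adjusted p = 4.50e-12). The helicase subunit Mcm5 went from 777, 846, 887, 839 and 821 CPM to 120.2, 143, 157, 117 and 158 CPM, with a log2 fold change of -2.58 ± 0.10 (SE, adjusted p = 6.95e-12). Neither gene had overlapping ranges. Rfc1 was at 211, 211, 182, 205 and 229 CPM at Day 0 and 163, 203, 202, 151 and 173 CPM at Day 5, with a log2 fold change of -0.21 ± 0.09 (SE, adjusted p = 0.0583). Without replicates 1 and 4 of the Abcb10-null Day 5 group, 38 members fell, against 33.9% of genes tested, and the median was -1.11.

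**Figure D2:**
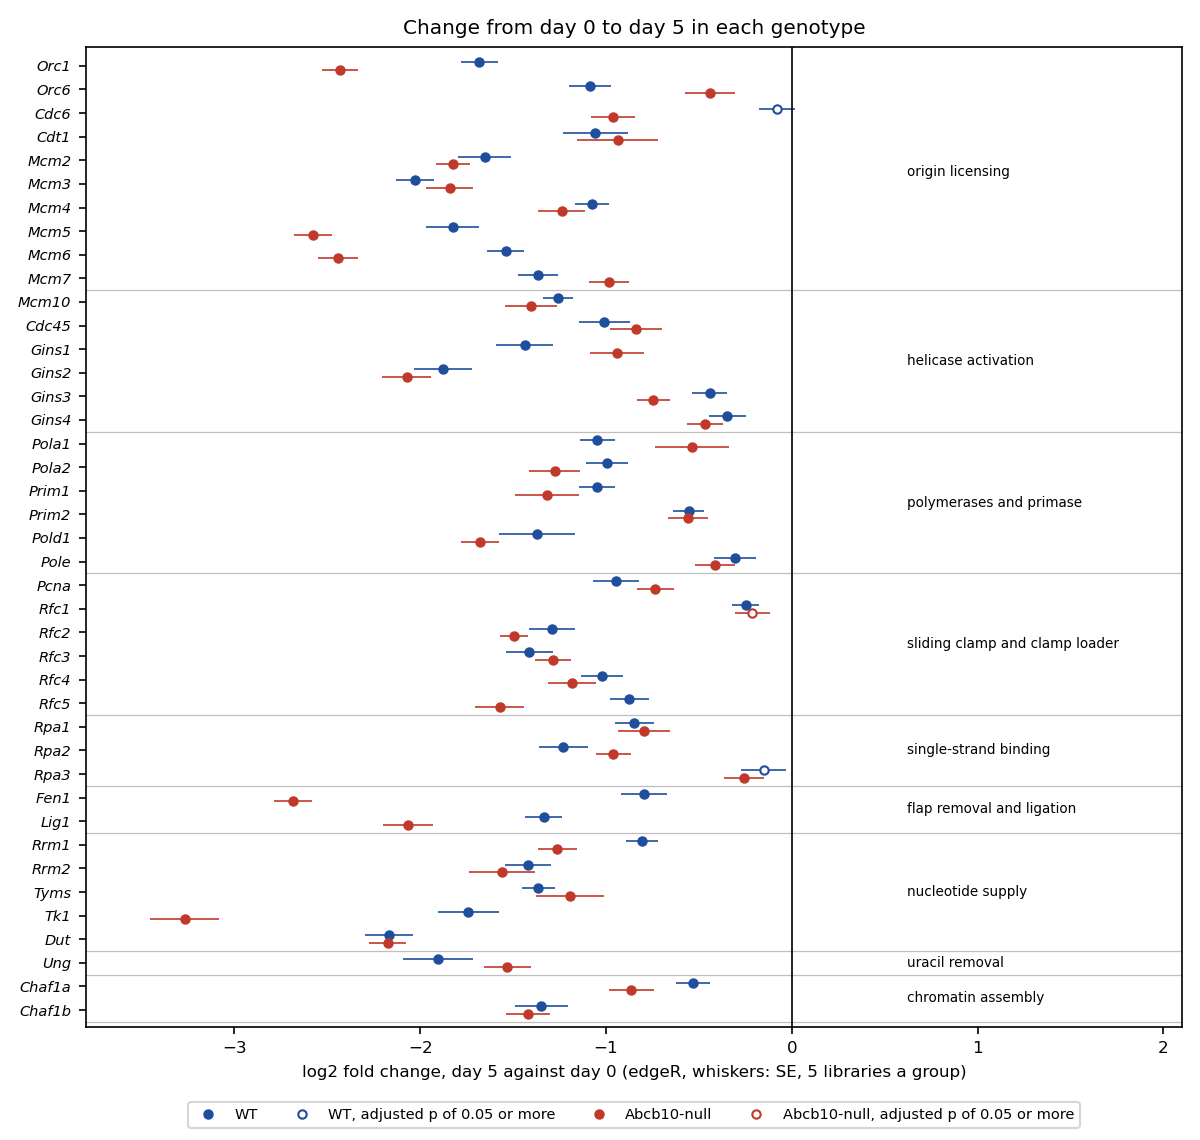
Log2 fold change from Day 0 to Day 5 (x axis, edgeR, whiskers are SE, 5 libraries a group) of the 41 members (y axis, by role) in WT (blue) and Abcb10-null (red) cells, with open circles where the adjusted p was 0.05 or more. Points lie left of 0 for every member, and the genotypes are farthest apart for Fen1 (-0.80 against -2.69) and Tk1 (-1.74 against -3.27).

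At Day 2, fewer members had passed the test in Abcb10-null cells. Between Day 0 and Day 2, 17 members fell and 3 rose, against 20.1% and 23.1% of the 12940 genes tested, with a median log2 fold change of -0.20 (all genes 0.03). The groups lay apart downward in 14 members against 17.3% of genes tested (12.2% upward). Orc1 fell from 89.4, 76.8, 79.1, 81.2 and 79.7 CPM to 21.9, 45.1, 38.7, 22.8 and 36.6 CPM, with a log2 fold change of -1.26 ± 0.19 (SE, adjusted p = 1.45e-04). Tk1 fell to 27, 74.8, 49.5, 32.6 and 66.7 CPM, with replicates 2 and 5 well above the other 3 and a log2 fold change of -1.20 ± 0.24 (SE, adjusted p = 0.0013). Fen1 fell to 115, 191, 171, 132 and 133 CPM, with a log2 fold change of -1.16 ± 0.14 (SE, adjusted p = 2.65e-05), and for all these genes the Day 2 libraries were below the Day 0 libraries. The members that rose were Gins4 (log2 fold change 0.40 ± 0.11, SE, adjusted p = 0.0122), Rfc1 (0.38 ± 0.11, SE, adjusted p = 0.0109) and the primase subunit Prim2 (0.33 ± 0.12, SE, adjusted p = 0.0447). All 3 had overlapping ranges, and Gins4 was at 119, 124, 128, 129 and 122 CPM at Day 0 and 174, 119, 190.1, 173 and 146 CPM at Day 2. The call for Prim2 was lost, at 0.27 to 0.34, without any 1 library of the 2 groups but Day 2 replicates 2 and 5, and 5 members rose without Day 2 replicate 2. Without replicates 2 and 5 of the Day 2 group, 9 members rose and 17 fell, against 28.2% and 27% of genes tested.

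From Day 2 to Day 5, 40 Abcb10-null members fell and none rose, against 16.6% and 14.4% of the 12797 genes tested, with a median log2 fold change of -0.97 (all genes 0.01). The groups lay apart in 36 members, against 11.3% of genes tested (10.9% the other way). Tk1 (log2 fold change -2.06 ± 0.30, SE, adjusted p = 2.91e-04) and Mcm6 (-2.0 ± 0.16, SE, adjusted p = 9.00e-06), the latter from 816, 915, 1208, 932 and 727 CPM to 186, 253, 269.6, 199 and 242 CPM, fell most. Lig1 went from 40.2, 85.6, 74.2, 50.2 and 62.6 CPM to 11.6, 20.9, 19.2, 16.9 and 17.2 CPM, with a log2 fold change of -1.87 ± 0.21 (SE, adjusted p = 5.75e-05). Only Cdt1 had no call, at 5.73, 10.4, 5.08, 6.87 and 5.03 CPM at Day 2 and 6.31, 3.36, 3.39, 5.71 and 2.93 CPM at Day 5 (log2 fold change -0.61 ± 0.29, SE, adjusted p = 0.125).

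Set side by side before treatment, the genotypes differed in these genes about as often as in all genes. At Day 0, 7 members were higher and 8 lower in Abcb10-null than in WT cells, against 19.7% and 16.2% of the 12912 genes tested, and the median log2 fold change of members and of all genes was -0.02 and -0.00. The groups did not overlap in 5 members upward and 6 downward, against 13.7% and 9.15% of genes tested. Mcm6 was at 1053, 967, 1040.3, 1001 and 1005 CPM for WT and 1273, 1279.5, 1155, 1233 and 1349 CPM in Abcb10-null libraries. Its groups lay apart, with a log2 fold change of 0.31 ± 0.05 (SE, adjusted p = 2.73e-04). Rfc2 (0.24 ± 0.06, SE, adjusted p = 0.00295) and Rrm1 (0.21 ± 0.06, SE, adjusted p = 0.00545) were the next highest, at 286 to 320.2 against 327 to 381 CPM and 545 to 600.2 against 614 to 692 CPM. Lig1 was the lowest relative to WT, with 97.5, 91.6, 93.0, 84.9 and 106 CPM for WT and 75, 72.0, 61.6, 71.5 and 81.4 CPM in Abcb10-null libraries and a log2 fold change of -0.39 ± 0.08 (SE, adjusted p = 6.14e-04). Chaf1a (-0.36 ± 0.08, SE, adjusted p = 0.0029) and the polymerase δ catalytic subunit Pold1 (-0.29 ± 0.07, SE, adjusted p = 0.00436) were also lower, at 77.7 to 88.8 against 53.1 to 76.1 CPM and 68.7 to 78.4 against 52.7 to 66.2 CPM. None of the 15 calls was kept when all 30 libraries shared 1 estimate of the spread. In that fit 7.14% and 3.64% of all genes tested were called higher and lower. Such shares are not given for the fits that left out 1 library. Leaving out 1 library gave 7 to 11 lower and 3 to 6 higher, with 3 higher when any 1 of replicates 3, 4 and 5 (WT) or 2 and 4 (Abcb10-null) was left out and 4 higher for replicate 2 (WT) or 5 (Abcb10-null).

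At Day 2, 4 members were higher and 7 lower in Abcb10-null cells, against 14.9% and 16.9% of the 13053 genes tested, with a median log2 fold change of 0.13 (all genes -0.00). All groups overlapped but those of Rfc1 and Prim1 upward and Fen1 downward, 2 and 1 members against 8.01% and 8.11% of genes tested. Fen1 had 230.3, 248, 206, 249 and 197 CPM for WT and 115, 191, 171, 132 and 133 CPM in Abcb10-null libraries, with a log2 fold change of -0.66 ± 0.15 (SE, adjusted p = 0.00824). Orc6, another subunit of the origin recognition complex, had 105, 98.3, 127, 124 and 111 CPM for WT and 199.8, 122, 204, 219 and 162 CPM in Abcb10-null libraries. Its Abcb10-null replicate 2 lay within the WT range and the other 4 above it. The log2 fold change was 0.63 ± 0.15 (SE, adjusted p = 0.0088). Rfc1, the largest clamp loader subunit, had 176, 181, 181, 197 and 181 CPM for WT and 287, 219, 308, 282 and 233 CPM in Abcb10-null libraries, which lay apart, with a log2 fold change of 0.48 ± 0.11 (SE, adjusted p = 0.00887). Cdt1, Lig1 and Gins1 had log2 fold changes of -1.02 ± 0.31 (SE, adjusted p = 0.0262), -0.64 ± 0.20 (SE, adjusted p = 0.0253) and 0.39 ± 0.13 (SE, adjusted p = 0.0404), all with overlapping ranges. The Cdt1 call was lost, at -1.03 to -0.79, without any 1 library of the 2 groups but WT replicates 3, 4 and 5 and Abcb10-null replicate 2. The Lig1 call was lost, at -0.64 to -0.51, when any 1 of replicates 1, 2 and 4 (WT) or 1 and 4 (Abcb10-null) was left out, and the Gins1 call, at 0.33 to 0.41, without any 1 library but WT replicate 3 and Abcb10-null replicates 2 and 5.

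The Day 2 counts were then taken without the libraries that stood apart. Without WT replicates 1 and 2, no member passed the test in either direction, where 2.66% and 2.81% of all genes tested were called higher and lower. The log2 fold changes of Fen1 and Orc6 were -0.59 (adjusted p = 0.0646) and 0.54 (adjusted p = 0.0780). Without Abcb10-null replicates 2 and 5, 14 members were higher and 9 lower, against 22.6% and 24.8% of all genes tested. Leaving out 1 library at a time gave 2 to 11 higher and 2 to 9 lower, with 11 higher without Abcb10-null replicate 2, 7 without replicate 5 and 2 when any 1 of replicates 1, 2 and 5 (WT) or 1, 3 and 4 (Abcb10-null) was left out. The count of lower members was 2 when any 1 of replicates 1 and 2 (WT) or 1 and 4 (Abcb10-null) was left out, 3 for Abcb10-null replicate 5, and 4 for WT replicate 4 or Abcb10-null replicate 3. For the fits that left out 1 library, shares of all genes called are not given, so these swings cannot be set against all genes. The part of the erythroid genes that moved with the libraries that stood apart was not tested.

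At Day 5, 12 members were lower and 2 higher in Abcb10-null cells, against 17.8% and 19.8% of the 12676 genes tested, and the median log2 fold change was -0.22 (all genes -0.02). In 8 members the Abcb10-null libraries all lay under the WT range, as in 10.4% of genes tested, and in none did they all lie over it, against 13.5%. The 3 largest differences were in lagging-strand joining and thymidine salvage. Fen1, at chr19:10199132-10204169 in GRCm38, had 206, 119, 192, 176 and 172 CPM for WT and 50.4, 57.3, 60.0, 41.7 and 52.8 CPM in Abcb10-null libraries. The groups lay far apart, and Fen1 stood at 30.1% of WT with a log2 fold change of -1.73 ± 0.15 (SE, adjusted p = 5.10e-06). An antisense gene, Gm10143, covers 78.8% of the Fen1 exon bases and was at most 0.553 CPM in any group. The effect of this overlap on the Fen1 counts was not tested. Tk1, at chr11:117815526-117826092, had 42.1, 20.2, 38.7, 28.9 and 33.7 CPM for WT and 9.47, 14.8, 18.1, 7.37 and 10.4 CPM in Abcb10-null libraries. Its groups lay apart, with WT replicate 2 closest to the Abcb10-null range, and the log2 fold change was -1.44 ± 0.25 (SE, adjusted p = 7.53e-04). Lig1, at chr7:13277283-13311433, had 42.7, 41, 33.5, 34.5 and 35.5 CPM for WT and 11.6, 20.9, 19.2, 16.9 and 17.2 CPM in Abcb10-null libraries, again apart, with a log2 fold change of -1.13 ± 0.16 (SE, adjusted p = 1.77e-04).

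**Figure D3:**
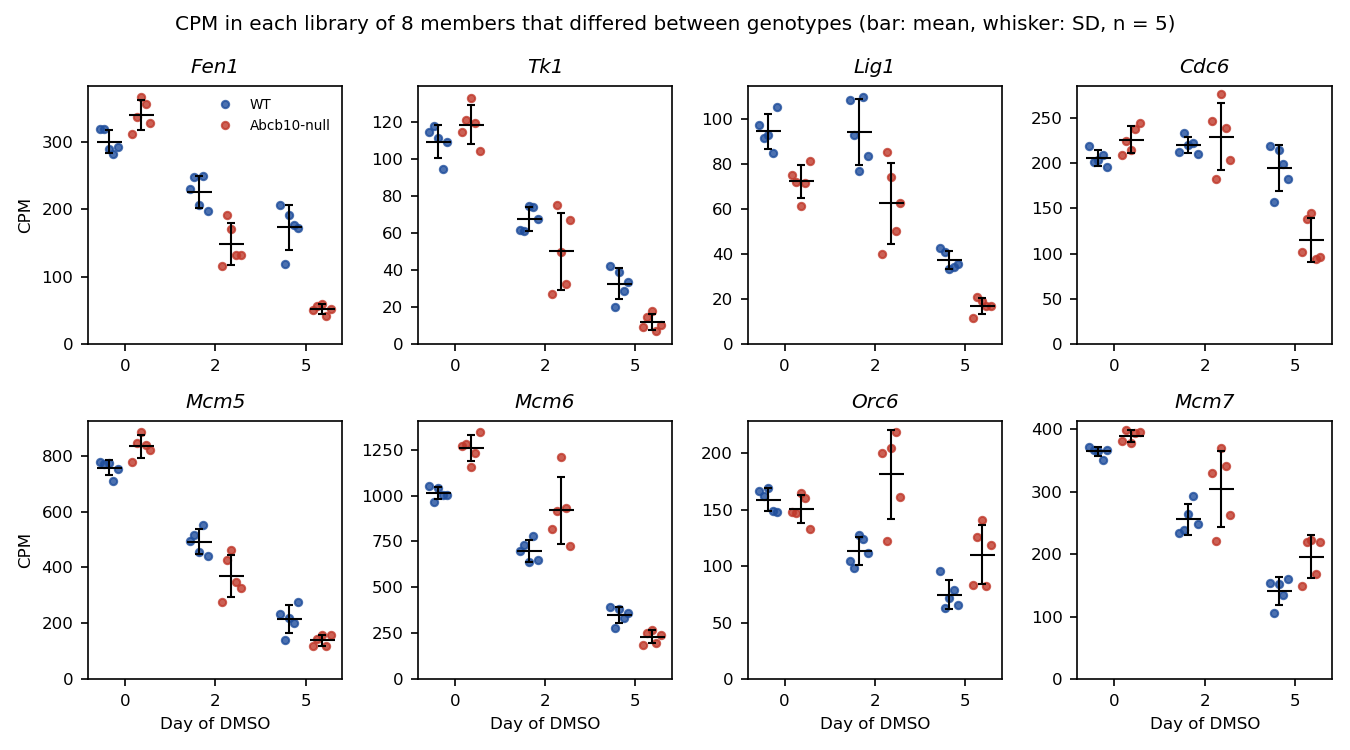
CPM (y axis, from 0) of 8 members in each library by day of DMSO (x axis), in WT (blue) and Abcb10-null (red) cells, with the mean as a bar and the SD as a whisker (n = 5). At Day 5 the red points of Fen1 (41.7 to 60.0 CPM) and Lig1 (11.6 to 20.9 CPM) lie under all blue points (119 to 206 and 33.5 to 42.7 CPM), while those of Orc6 and Mcm7 reach above them.

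Other genes that were lower at Day 5 came from several steps of replication. Cdc6 had kept its level in WT cells (157 to 219 CPM) and was at 102, 138, 145, 93.9 and 96.8 CPM in Abcb10-null libraries, none of which reached the WT range, with a log2 fold change of -0.76 (adjusted p = 0.00145). Orc1 (-0.74, adjusted p = 9.25e-04), Mcm6 (-0.61, adjusted p = 0.00271), Gins3 (-0.52, adjusted p = 0.00433) and Chaf1a (-0.70, adjusted p = 0.00112) also had groups that lay apart. Ubxn6, which shares 52.5% of the Chaf1a exon bases on the opposite strand, was at 47.5 to 80.0 CPM in WT and 83.7 to 104 CPM in Abcb10-null libraries at that day. The effect of this overlap on the Chaf1a counts was not tested. Mcm5 (-0.63), Rfc5 (-0.61), Pold1 (-0.60) and the polymerase α subunit Pola2 (-0.51) were lower with overlapping ranges. Within the Mcm2-7 ring, the log2 fold changes thus ran from -0.63 and -0.61 for Mcm5 and Mcm6 through -0.26 for Mcm4, 0.00 for Mcm2 and 0.13 for Mcm3, none of which passed the test, to 0.46 for Mcm7.

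The 2 members that were higher in Abcb10-null cells at Day 5 were the licensing genes Orc6 and Mcm7. Orc6, at chr8:85299632-85308278, had 95.3, 62.6, 72.3, 78.5 and 65.3 CPM for WT and 83.0, 126, 141, 82.6 and 119 CPM in Abcb10-null libraries. Replicates 1 and 4 of the Abcb10-null group lay within the WT range and the other 3 above it. Orc6 had a log2 fold change of 0.55 ± 0.17 (SE, adjusted p = 0.0212). Mcm7 had 154, 105, 152, 135 and 161 CPM for WT and 148, 220.0, 223, 169 and 219 CPM in Abcb10-null libraries, with the same 2 libraries lowest and a log2 fold change of 0.46 ± 0.14 (SE, adjusted p = 0.0225). The Orc6 call was lost, at 0.43 to 0.53, without any 1 of Abcb10-null replicates 2, 3 or 5, and the Mcm7 call, at 0.40 to 0.43, without any 1 of these or WT replicate 4. The count of higher members was 4 when WT replicate 5 was left out, 1 when WT replicate 4 was, and none when any 1 of Abcb10-null replicates 2, 3 or 5 was. The count of lower members ran from 10 to 14 over the fits that left out 1 library. No share of all genes called is given for those fits. Without Abcb10-null replicates 1 and 4 together, 5 members were higher and 8 lower, against 16.8% and 14% of genes tested.

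Whether the course over time differed between genotypes was tested by the interaction of genotype and day. From Day 0 to Day 5, the change in Abcb10-null cells was below that in WT cells for 9 members and above it for 1, against 14.7% and 16.8% of the 14020 genes tested, with a median difference of -0.13 on the log2 scale (all genes -0.01). Fen1 led, as it fell to 57.6% of its Day 0 level in WT and to 15.5% of it in Abcb10-null cells, a log2 difference of -1.88 ± 0.16 (SE, adjusted p = 1.65e-08). Tk1 fell to 29.9% of Day 0 in WT and to 10.4% of it in Abcb10-null cells, a difference of -1.52 ± 0.26 (SE, adjusted p = 1.07e-04). For Mcm6, which was higher in Abcb10-null cells at Day 0 and lower at Day 5, the difference was -0.90 ± 0.15 (SE, adjusted p = 5.98e-05). Cdc6 (-0.87), Mcm5 (-0.74), Orc1 (-0.74), Lig1 (-0.72), Rfc5 (-0.69) and Rrm1 (-0.45) also passed the test. Orc6 fell to 47.0% in WT and to 73.7% in Abcb10-null cells, and was the gene with the opposite sign, at 0.66 ± 0.19 (SE, adjusted p = 0.0109). Without Abcb10-null Day 5 replicates 1 and 4, 8 members had a lower and 6 a higher difference, against 14.3% and 16.9% of genes tested. The count of higher members was 4 without Abcb10-null Day 5 replicate 1, 3 without replicate 4 or WT Day 5 replicate 5, and 2 without WT Day 5 replicate 1. Shares of all genes called are not given for these fits that left out 1 library.

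The courses of Mcm6 and Cdc6 parted between Day 2 and Day 5, while that of Fen1 had parted by Day 2 and then parted further. Between Day 2 and Day 5, 3 members had a lower difference and none a higher one, against 2.94% and 1.77% of the 13956 genes tested, with a median of -0.34 (all genes -0.00). These were Fen1 (-1.13 ± 0.22, SE, adjusted p = 0.00798), Mcm6 (-1.0 ± 0.20, SE, adjusted p = 0.00871) and Cdc6 (-0.82 ± 0.20, SE, adjusted p = 0.0205), whose differences from Day 0 to Day 2 had been -0.77, 0.09 and -0.07. Without Abcb10-null Day 5 replicates 1 and 4, Mcm6 was at -0.81 (adjusted p = 0.0521) and Cdc6 at -0.64 (adjusted p = 0.113), and 0.751% of genes tested were called lower. Without WT Day 2 replicates 1 and 2, Cdc6 was at -0.79 (adjusted p = 0.0844). Leaving out WT Day 5 replicate 2 gave 5 lower, and shares of all genes are not given for fits that left out 1 library. The Cdc6 call was also lost, at -0.77 to -0.70, without any 1 of WT Day 2 replicate 5, Abcb10-null Day 2 replicate 3, WT Day 5 replicate 1 or Abcb10-null Day 5 replicates 1 or 5, and 1 member was higher without Abcb10-null Day 2 replicate 2.

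The earlier step gave differences of both signs, about as often as in all genes tested. From Day 0 to Day 2, 6 members had a higher and 4 a lower difference, against 12% and 10.8% of the 13980 genes tested, with a median of 0.19 (all genes 0.02). Orc6 (0.76 ± 0.17, SE, adjusted p = 0.00402), Pcna (0.54 ± 0.17, SE, adjusted p = 0.0271) and Gins4 (0.48 ± 0.15, SE, adjusted p = 0.0264) were the highest. Pcna had 407, 399, 459.8, 429.6 and 406 CPM at Day 0 and 265, 265, 374, 371 and 330.2 CPM at Day 2 in WT cells, where all Day 2 libraries were lower. In Abcb10-null cells it had 369, 377, 411, 400.1 and 343 CPM and 404, 322, 525, 476 and 384 CPM, and the ranges overlapped. Cdt1 (-1.0 ± 0.34, SE, adjusted p = 0.0383), Fen1 (-0.77 ± 0.16, SE, adjusted p = 0.00259) and Mcm5 (-0.55 ± 0.16, SE, adjusted p = 0.016) were the lowest. Without WT Day 2 replicates 1 and 2, 1 was higher and 2 lower, against 6.64% and 5.68% of genes tested. Without Abcb10-null Day 2 replicates 2 and 5, 14 were higher and 6 lower, against 19% and 20.6%. Of the 20 fits that left out 1 library, 10 lost the Cdt1 call (-1.03 to -0.83), 9 the Pcna call (0.42 to 0.51) and 9 the Gins4 call (0.38 to 0.46). The count of higher members fell to 1 without any 1 of WT Day 2 replicates 1 or 2, Abcb10-null Day 0 replicates 1 or 2 or Abcb10-null Day 2 replicates 3 or 4, and was 10 without Abcb10-null Day 2 replicate 2. It was 2 or 3 without WT Day 0 replicate 3 or 4, Abcb10-null Day 0 replicate 4 or 5, WT Day 2 replicate 5 or Abcb10-null Day 2 replicate 1. The count of lower members was 2 without any 1 of WT Day 0 replicates 1 or 3, Abcb10-null Day 0 replicates 2 or 5, WT Day 2 replicates 1 or 2 or Abcb10-null Day 2 replicate 1. These counts, too, lack the share of all genes called in the same fit.

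**Figure D4:**
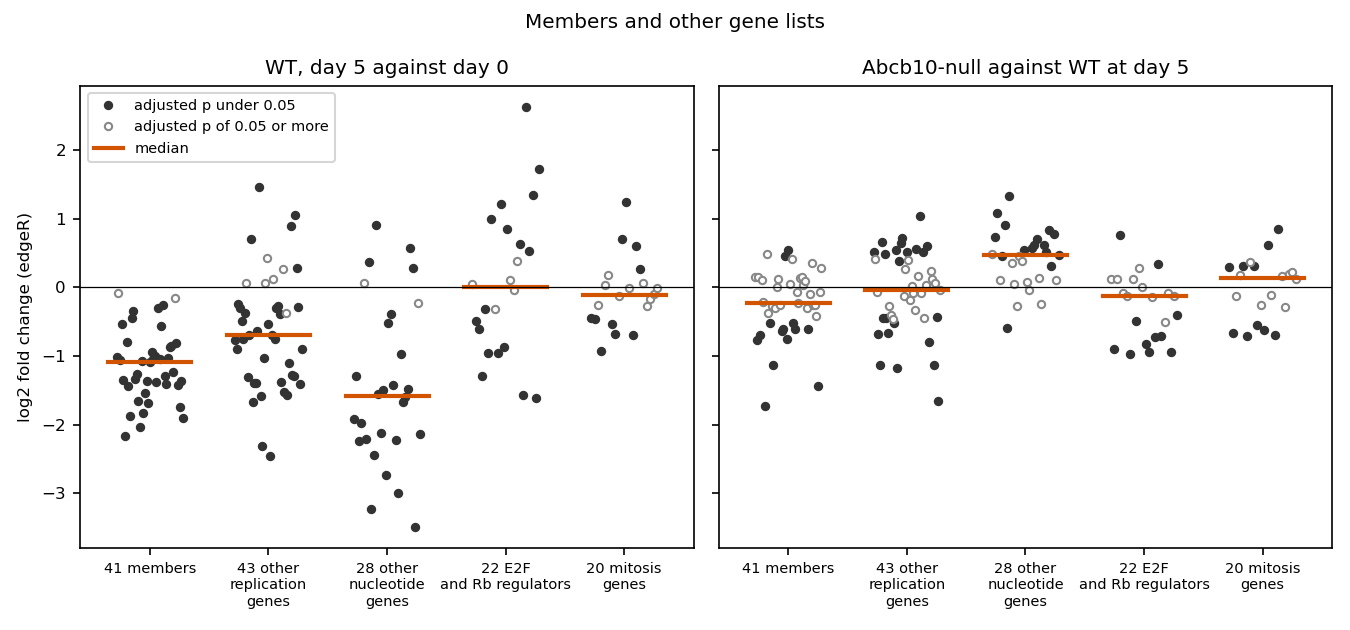
Log2 fold change (y axis, edgeR) of the 41 members and of 4 other gene lists (x axis), in WT cells from Day 0 to Day 5 (left) and between genotypes at Day 5 (right), with 1 point a gene, filled where the adjusted p was under 0.05, and the median as a bar. On the left the medians of the members (-1.09), the other replication genes (-0.69) and the other nucleotide genes (-1.58) lie under 0 and that of the mitosis genes is -0.11, and on the right the other nucleotide genes have the highest median (0.47).

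Genes of neighbouring pathways were read from lists that share no gene with the members. Of 43 other replication genes, 32 fell and 5 rose in WT cells between Day 0 and Day 5, led by the polymerase δ subunit Pold2 (log2 fold change -2.46), the histone chaperone Nasp (-2.31) and Dscc1 (-1.67), a subunit of the alternative clamp loader, against 34.7% and 36.5% of all genes tested. Between genotypes at Day 5, 12 of them were higher and 11 lower in Abcb10-null cells, and Uhrf1 (-1.66), which guides DNA methylation to new strands, Mcm9 (-1.18) and Chtf18 (-1.14), of the same clamp loader as Dscc1, differed most, with 19.8% and 17.8% of all genes tested called higher and lower. The 20 mitosis genes moved less over time, with 6 lower, 4 higher and a median of -0.11 in WT cells at Day 5, where Cenpf rose by 1.25 and Bub1b fell by 0.92 on the log2 scale, and Cenpe rose by 0.70. Their mean level stayed between 7.52 and 7.95 log2 CPM in all 30 libraries. Between genotypes at Day 5, 5 mitosis genes were higher and 5 lower, near those shares of all genes, with Ndc80 at 0.85, Ccnb2 at -0.71 and Mki67 at -0.69.

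Nucleotide genes outside the members were set beside the 5 supply genes. Of 28 genes for purine, pyrimidine and folate steps, 22 fell and 4 rose in WT cells by Day 5. Of all genes tested, 34.7% fell and 36.5% rose. Shmt1 (-3.49), which makes one-carbon units, the dCMP deaminase Dctd (-3.23) and the nucleoside diphosphate kinase Nme2 (-3.0) were lowest. In Abcb10-null cells at Day 5, 15 of the 28 were higher than in WT and 1 lower, against 19.8% and 17.8% of all genes tested, and the median was 0.47 on the log2 scale. Dctd (1.33), the purine enzyme Atic (1.09) and the CTP synthase Ctps (0.90) were highest. By the interaction from Day 0 to Day 5, 18 of the 28 passed the test with a higher difference in Abcb10-null cells and none with a lower one. Of the 14020 genes tested, 16.8% had a higher and 14.7% a lower difference. Between genotypes at Day 5, the log2 fold changes of the 5 supply genes were -1.44 for Tk1, -0.42 for Rrm2, -0.25 for Rrm1, -0.22 for Dut and -0.06 for Tyms, and only that of Tk1 passed the test.

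Among 22 E2F and Rb regulators, 9 fell and 8 rose in WT cells by Day 5, close to the shares of all genes tested (34.7% and 36.5%). Rb1, which holds E2F factors inactive, rose by 2.63 on the log2 scale, and of the E2F partners Tfdp2 rose by 1.72 and Tfdp1 fell by 1.61. Between genotypes at Day 5, 9 were lower and 2 higher in Abcb10-null cells, against 17.8% and 19.8% of all genes tested, with E2f2 at -0.98, the Rb relative Rbl2 at -0.95 and the repressor E2f8 at -0.94.

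The promoters of the members were searched for the letters of E2F sites (TTTCCCGC and TTTGGCGC, on both strands, which cannot share a start) from 250 bases before to 50 bases after the RefSeq start site in GRCm38. RefSeq promoters were matched for 34 of the 41 members, and 10 of them (29.4%) held 1 of these sites or more, against 3.55% of the 9689 tested genes with a promoter and 1.80% of all 27025 genes with one. A gene with more than 1 RefSeq promoter, as Mcm7, Fen1 and Lig1 have, was counted if any held a site. They were Mcm3, Mcm5, Mcm6, Mcm7, Cdc6, Cdt1, Gins3, Rfc3, Pola1 and Pold1. CCAAT, the letters of NF-Y sites, was in 61.8% of the member promoters and 43.4% of those of tested genes, and TTTGAA, those of the cell cycle element CHR, in 11.8% and 14.2%. In the mitosis list, 76.5% of 17 promoters held TTTGAA and none an E2F site. An E2F site was in 23.7% of 38 promoters of the other replication genes and 31.25% of 16 of the E2F and Rb regulators. Of 24 promoters of the other nucleotide genes, 4.17% held one. E2F sites were thus not particular to the members.

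Below are the 250 bases before the RefSeq start site of 4 licensing genes that differed between genotypes at Day 5. They were taken from those with an E2F site. Orc1 and Orc6, the other licensing genes that differed, held neither set of letters in their RefSeq windows. Mcm5, Mcm6 and Cdc6 were lower and Mcm7 higher in Abcb10-null cells, and the ranges of Mcm5 and Mcm7 overlapped. Each sequence reads 5′ to 3′ on the strand of its gene. The 4 printed genes were chosen after their levels were seen, to show where the marked letters lie. The part of these sites in the difference between genotypes was not tested. The sequences lie at chr8:75109259-75109508 (plus strand), chr1:128359706-128359955 (minus), chr5:138171884-138172133 (minus) and chr11:98907901-98908150 (plus) in GRCm38.p6, and capitals mark the E2F site as read on that strand.
Mcm5: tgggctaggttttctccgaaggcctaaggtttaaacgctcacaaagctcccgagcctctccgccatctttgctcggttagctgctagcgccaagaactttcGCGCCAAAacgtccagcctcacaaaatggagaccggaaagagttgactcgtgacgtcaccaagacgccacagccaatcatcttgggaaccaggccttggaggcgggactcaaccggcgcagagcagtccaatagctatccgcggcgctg
Mcm6: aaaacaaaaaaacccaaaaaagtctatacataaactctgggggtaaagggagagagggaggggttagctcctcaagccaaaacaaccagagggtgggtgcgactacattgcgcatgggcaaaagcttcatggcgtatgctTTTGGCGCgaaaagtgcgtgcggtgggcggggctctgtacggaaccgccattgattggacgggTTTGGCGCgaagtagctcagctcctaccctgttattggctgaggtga
Mcm7: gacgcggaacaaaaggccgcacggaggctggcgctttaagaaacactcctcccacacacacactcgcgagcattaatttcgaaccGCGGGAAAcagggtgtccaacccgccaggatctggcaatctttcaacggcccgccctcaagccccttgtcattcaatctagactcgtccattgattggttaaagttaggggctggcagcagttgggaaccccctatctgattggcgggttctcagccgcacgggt
Cdc6: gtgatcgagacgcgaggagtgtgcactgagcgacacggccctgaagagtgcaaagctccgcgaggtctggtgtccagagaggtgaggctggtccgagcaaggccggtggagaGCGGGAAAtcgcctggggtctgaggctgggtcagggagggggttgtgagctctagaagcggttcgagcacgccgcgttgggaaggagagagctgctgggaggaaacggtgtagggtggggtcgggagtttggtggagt
Counted with the start site as 0, the marked sites begin at -149 in Mcm5, at -110 and -47 in Mcm6, at -165 in Mcm7 and at -138 in Cdc6. Mcm7 has a second RefSeq promoter, which held no E2F site. The annotation used for exon lengths starts Mcm7 (chr5:138164583-138172422) and Cdc6 (chr11:98907801-98923940) farther upstream. Their printed stretches and sites therefore lie within the annotated genes. Mcm6 averaged 349 ± 45.3 CPM (SD, n = 5) in WT against 229.9 ± 35.7 CPM in Abcb10-null cells at Day 5. Mcm7 averaged 141 ± 22.4 against 196 ± 34.7 CPM. Fen1, Tk1 and Lig1, the members with the largest differences at that day, held neither set of letters in their RefSeq windows. Other forms of the E2F site were not searched.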

How the data were processed

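RNA was measured in 30 MEL libraries, 5 of each genotype and day. Total RNA had been depleted of ribosomal and globin RNA before stranded libraries were made. Globin transcripts were still detected, and their levels depend on how far this depletion went in each library. The authors deposited 1 table of whole-number counts per Ensembl gene, not normalized. The submitters' processing notes name STAR 2.6.1b, featureCounts 1.6.3 and GRCm38 (mm10), and whether strand was used in counting is not given in the sources used here. How reads in exons shared with an opposite-strand neighbour were counted is therefore not known.

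Groups came from the labels. Genes were filtered with filterByExpr and tested with edgeR 4.0.16 (R 4.3.3), by the quasi-likelihood F test with TMM scaling, in a fit of the groups compared only, with p-values adjusted by Benjamini-Hochberg across the whole table tested, called at 0.05. A log2 fold change is second minus first group, or Abcb10-null minus WT, and its SE was computed from the fit. CPM used TMM sizes of all 30 libraries. Levels per kilobase used exon unions of the GRCm38 annotation. Alternatives were DESeq2 1.42.0, its size factors in edgeR, total counts, all genes with at least 1 count, all 30 libraries in 1 fit, the replicate number as a block, and leaving out each library. Leaving out the pairs of libraries that stood apart was chosen after seeing the data. The scripts were tested on simulated data. In each comparison the text gives full statistics for the 3 called members with the largest rise and the 3 with the largest fall, and names others as exceptions of their role; members named beyond this rule, and those in the plot of 8 genes, were chosen after their values were seen. From each other list it names the 3 called genes with the largest change. The members and lists were chosen with earlier results of these data known. Promoter sequences are from RefSeq (GRCm38.p6).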

Additional observations from a re-analysis of the deposited data

Results flagged for a closer look

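In 13 of the 246 member and group pairs, 1 library lay farther from the rest of its group than Dixon's 95% limit allows, where chance gives about 12.3. WT Day 2 replicate 4 was the highest of its group for Mcm3 (313 CPM), Cdc45 (113), Rfc1 (197) and Rpa2 (159). WT Day 5 replicate 2 was the lowest for Cdc45 (37.6 CPM), Gins2 (14.3) and Gins4 (83.4), and WT Day 5 replicate 5 was the highest for Pold1 (49.3) and Ung (15.1). Mcm10 in WT Day 5 replicate 3 (61.8 CPM) was high, and Mcm7 (351) and Chaf1b (73.7) in WT Day 0 replicate 4 and Rrm1 in Abcb10-null Day 0 replicate 3 (614) were low.

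The change over time differed between genotypes, by the interaction term, in 23 tests of the 41 members over the intervals below. Of all genes tested, 12% had a higher and 10.8% a lower difference from Day 0 to Day 2. These shares were 1.77% and 2.94% from Day 2 to Day 5 and 16.8% and 14.7% from Day 0 to Day 5. Whether members differed more often than other genes was not tested. From Day 0 to Day 2 the log2 differences, Abcb10-null minus WT, were -1.0 for Cdt1, -0.77 for Fen1, -0.55 for Mcm5, -0.54 for Pole, 0.41 for Rfc1, 0.44 for Gins1, 0.48 for Pola1, 0.48 for Gins4, 0.54 for Pcna and 0.76 for Orc6. From Day 2 to Day 5 they were -1.13 for Fen1, -1.0 for Mcm6 and -0.82 for Cdc6. From Day 0 to Day 5 they were -1.88 for Fen1, -1.52 for Tk1, -0.90 for Mcm6, -0.87 for Cdc6, -0.74 for Mcm5, -0.74 for Orc1, -0.72 for Lig1, -0.69 for Rfc5, -0.45 for Rrm1 and 0.66 for Orc6.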

How the results depend on the processing

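None of the called members with the 3 largest rises or the 3 largest falls of a comparison changed sign under any setting run. No check of sign is given for the other called members. The median of the members changed sign between genotypes at Day 0 (-0.02, total counts 0.023) and in the interaction from Day 0 to 5 (-0.13, 0.047 without Abcb10-null Day 5 replicates 1 and 4). Outside the fits that left out 1 library, 355 values of the called members with these largest changes kept their call and 28 lost it. Of the counts and medians, 222 stayed within their limits. The other 39 follow, and the cause was not tested. With DESeq2, 7 members were higher at Day 2 between genotypes (17.5% of all genes tested) and 5 had a lower difference from Day 2 to 5 (5.42%). DESeq2's size factors gave 3 higher at Day 0 (18.6% of all genes tested). Total-count scaling moved the median of all genes by 0.21 (WT Day 2 against 0, where 42.2% and 21.1% of all genes were then called higher and lower) and by -0.18 (interaction from Day 0 to 2, 6.41% and 15.4%). The same shares were 23.6% and 12.7% between genotypes at Day 0, 13.2% and 21.5% for WT Day 5 against 2, 2.14% and 2.28% for the interaction from Day 2 to 5 and 12.6% and 20.2% for that from Day 0 to 5. Total-count scaling gave 5 higher, 17 lower and a median of -0.20 in WT Day 2 against 0. Between genotypes it gave 5 lower and a median of 0.023 at Day 0, and 2 higher at Day 2 (11.2% of all genes tested). For the interaction from Day 0 to 2 it gave 1 higher and a median of 0.029. All genes with at least 1 count gave 4, 2 and 1 higher at Days 0, 2 and 5 (9.37%, 6.11% and 3.95% of all genes tested). The interactions from Day 0 to 2 and from 0 to 5 then had 2 higher (4.46% and 4.26%). All 30 libraries in 1 fit gave 0 higher and 0 lower at Day 0 (7.14% and 3.64% of all genes tested). It gave 10 higher at Day 2 (21.8%) and 5 higher at Day 5 (20.3%). The interaction from Day 2 to 5 then had 1 higher and 6 lower (4.94% and 6.65%).

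The replicate number did not pair the libraries (75 same-number pairs, correlations of -0.34 to 0.50, median -0.027, and 6 of 30 libraries correlated best with their own number). With it as a block, 3 members were higher at Day 0 (18% of all genes tested), and no other count of members moved by over 1.5 times. Prim2 lost its call in Abcb10-null cells between Day 0 and 2 (0.30, adjusted p = 0.0791). Without WT Day 2 replicates 1 and 2, the genotype comparison at Day 2 had 0 higher and 0 lower, WT Day 2 against 0 had 1 higher and a median of -0.32, and the interaction from Day 0 to 2 had 1 higher and 2 lower. Without Abcb10-null Day 2 replicates 2 and 5, 14 were higher at Day 2 and 9 rose in Abcb10-null cells by Day 2. The interaction from Day 0 to 2 had 14 higher, and that from Day 2 to 5 had 1 higher and 5 lower (5.22% and 5.52% of all genes tested). Without Abcb10-null Day 5 replicates 1 and 4, 5 were higher at Day 5, the interaction from Day 2 to 5 had 1 lower and a median of -0.16, and that from Day 0 to 5 had 6 higher and a median of 0.047.

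Leaving out 1 library gave 3 to 6 higher at Day 0, 2 to 11 higher and 2 to 9 lower at Day 2, and 0 to 4 higher at Day 5 between genotypes. The shares of all genes called in these fits are not given here. WT Day 2 against 0 had 1 to 2 higher and medians of -0.45 to -0.34, and Abcb10-null Day 2 against 0 had 2 to 5 higher. The interaction from Day 0 to 2 had 1 to 10 higher, 2 to 6 lower and medians of 0.089 to 0.21, that from Day 2 to 5 had 0 to 1 higher and 2 to 5 lower, and that from Day 0 to 5 had 1 to 4 higher. The lowest member count was 32 (Cdt1), so that counting error is largest for that gene.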
